A study of Mus musculus with 12 samples.

Results

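The phagocyte NADPH oxidase was followed through 5 of its genes, Cyba, Cybb, Ncf1, Ncf4 and Rac2, which were found by symbol among the 53465 genes of the expression table. The 5 genes were chosen with earlier results of these data known. All 5 had enough reads to be tested in every comparison. RNA-seq of LSKs, the Lin- Sca-1+ c-Kit+ cells of mouse bone marrow (BM) in which hematopoietic stem cells reside, was carried out in 4 groups of 3 libraries. The groups were untreated Tespa1+/+ LSKs, untreated Tespa1-/- LSKs, Tespa1+/+ LSKs at day 9 after one injection of 150 mg/kg 5-FU (5-fluorouracil, which kills dividing cells), and Tespa1-/- LSKs at day 9 after the same 5-FU dose. Tespa1-/- mice carried the germline allele B6.129S-Tespa1tm1Smoc on a C57BL/6 background, so the allele was carried by every cell of the animal and not by LSKs alone. The wild type mice were labelled as littermates, and the mice of the study were males of 8 to 10 weeks. The labels number the libraries 1 to 3 in each group but do not say whether a library came from 1 mouse or several, so the p-values below measure the spread between these libraries, which may be technical.

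The oxidase passes electrons from NADPH across a membrane to oxygen and so makes superoxide, the first of the reactive oxygen species (ROS) with which neutrophils and macrophages kill microbes. Cybb encodes the catalytic subunit (gp91phox, also called NOX2) and Cyba its small membrane partner (p22phox), and the pair forms the flavocytochrome that sits idle in the membrane. Ncf1 (p47phox) and Ncf4 (p40phox) wait in the cytosol until a stimulus brings them, with the GTPase Rac2, to the membrane. In HSCs, ROS are known as a signal that accompanies exit from quiescence, and Rac2 has further roles there in adhesion and migration.

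Promoter sequence is shown for the members whose expression moved in different ways with 5-FU, so that it can be set beside the values below. RefSeq's promoter table (GRCm38.p6) holds windows for 3 of the 5 members, each with 250 bases before and 50 bases from the annotated start onward, and Ncf4 and Rac2 were not matched. The 250 bases upstream are printed 5′ to 3′ on the gene's own strand. Capitals mark each match, on either strand, to GAGGAA (a form of the GGAA core bound by ETS factors such as PU.1), CCAAT or GGGCGG (a GC box). Other forms of GGAA were not searched for, and those in the printed stretches stay in lower case. All 3 genes lie on the minus strand, with Cyba at chr8:122432941-122433190, Cybb at chrX:9469325-9469574 and Ncf1 at chr5:134229626-134229875.
Cyba: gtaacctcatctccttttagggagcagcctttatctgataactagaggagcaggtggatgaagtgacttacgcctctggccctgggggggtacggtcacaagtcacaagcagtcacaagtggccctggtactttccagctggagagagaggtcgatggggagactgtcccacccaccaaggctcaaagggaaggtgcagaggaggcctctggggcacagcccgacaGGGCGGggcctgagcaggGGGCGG
Cybb: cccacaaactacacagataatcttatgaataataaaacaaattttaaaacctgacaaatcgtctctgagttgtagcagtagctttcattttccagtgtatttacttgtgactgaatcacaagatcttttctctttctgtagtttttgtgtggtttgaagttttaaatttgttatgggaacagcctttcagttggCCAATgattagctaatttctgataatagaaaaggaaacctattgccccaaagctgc
Ncf1: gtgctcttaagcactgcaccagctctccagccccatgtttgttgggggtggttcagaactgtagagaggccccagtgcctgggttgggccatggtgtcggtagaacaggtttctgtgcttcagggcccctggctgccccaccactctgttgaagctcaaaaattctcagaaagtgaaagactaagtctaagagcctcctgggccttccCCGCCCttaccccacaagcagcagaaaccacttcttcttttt
Cyba has GGGCGG beginning 24 and 6 bases before its start, Ncf1 has the reverse complement of the same motif beginning 42 bases before its start, and neither has CCAAT or GAGGAA in the 300 bases. Cybb has CCAAT beginning 56 bases before its start and, in the part not printed, the reverse complement of GAGGAA from 9 to 14 bases after the first transcribed base, and no GGGCGG. No match overlaps another. Of 32851 windows of this length, 28.3% hold GAGGAA, 37.4% CCAAT and 35.7% GGGCGG on either strand, so each motif is common. The share of G and C in the windows was 60.7% for Cyba, 54.0% for Ncf1 and 35.3% for Cybb, against a median of 52.7% over all windows. The start used for Cybb is at 9469324, inside the span given for the gene in the expression table (X, 9435252 to 9487771), so it is not the outermost annotated start.

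The 5 genes lie on 4 chromosomes of GRCm38, the build of the table. Cyba (ENSMUSG00000006519) spans 122424776 to 122432930 of chromosome 8, Ncf1 (ENSMUSG00000015950) 134220053 to 134229625 of chromosome 5, and Cybb is ENSMUSG00000015340. Ncf4 (ENSMUSG00000071715) and Rac2 (ENSMUSG00000033220) are both on chromosome 15, at 78244801 to 78262580 and 78559169 to 78572783, with 296588 bases between them. The whole of Cyba, 8155 bases, is covered by Gm20388, a long readthrough gene annotated on the other strand, and 4303 bases at the 3′ end of Ncf1 are covered by Gtf2ird2, also on the other strand. Whether the counting used strand is not given in the sources used here, so reads in such overlaps may have been counted on either gene. Gm20388 had 329 counts in Tespa1-/- library 3 after 5-FU, 176 in Tespa1+/+ library 3 after 5-FU and 0 in the other 10 libraries, and both values are taken up with Cyba below.

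Library totals ran from 22118154 to 28275079 counts, and the smallest level taken as detected, 3 counts, was 0.109 to 0.136 CPM (counts scaled to library size with TMM factors over the 12 libraries). This limit covers counting error only. Tespa1 itself was at 46.8 ± 3.95 CPM (SD, n = 3) in untreated Tespa1+/+ and 34.8 ± 0.225 CPM in untreated Tespa1-/- LSKs, and at 53.1 ± 5.34 and 19.2 ± 1.76 CPM after 5-FU, so reads on the targeted gene were lower in every Tespa1-/- library but far from absent. The fitted level in Tespa1-/- was 0.749 of that in Tespa1+/+ in untreated LSKs and 0.362 after 5-FU. Which part of the gene the allele removes is not given in the sources used here, and the table has no values per exon. The sorted cells carried their defining transcripts: Kit ranged over group means from 340 to 466 CPM and Ly6a, which encodes Sca-1, from 15.2 to 35.9 CPM. Both were lowest in Tespa1-/- after 5-FU, the group in which every member but Rac2 had its highest mean, and both were called lower there than in Tespa1+/+ after 5-FU, Kit at -0.45 (adjusted p = 2.21e-04 in edgeR) and Ly6a at -1.24 (adjusted p = 0.0265 in edgeR). Replicates were kept as separate samples, since they differed by more than sampling noise in every group.

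Cybb, the catalytic subunit, moved the most of the 5 genes. It was at 12.8, 11.3 and 10.4 CPM in the untreated Tespa1+/+ libraries, at 21.5, 17.2 and 18.0 CPM in untreated Tespa1-/-, at 36.6, 36.1 and 26.5 CPM in 5-FU-treated Tespa1+/+ and at 87.3, 81.9 and 84.9 CPM in 5-FU-treated Tespa1-/-. The 4 groups did not overlap at any point, and they stood in that order from lowest to highest. How many of all genes have 4 groups apart, or a single group apart from the rest as for members below, was not counted. The depth behind these values was 229 to 352 counts per library in the lowest group and 1885 to 2406 in the highest.

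Cyba, whose product holds the catalytic subunit stable in the membrane, was set apart in 1 group. It was at 33.2, 29.9 and 32.4 CPM in untreated Tespa1+/+, 35.2, 31.7 and 34.0 CPM in untreated Tespa1-/- and 30.8, 32.0 and 32.2 CPM in Tespa1+/+ after 5-FU, and these 9 libraries overlap. In Tespa1-/- after 5-FU it was at 56.7, 55.0 and 41.9 CPM, all 3 above the rest. Library 3, the low one of that group, is the library with 329 counts on the overlapping Gm20388, or 14.8 CPM. With those reads added to Cyba, a choice made after the values were seen, the 3 libraries were at 56.7, 55.0 and 56.7 CPM, and Tespa1+/+ library 3 after 5-FU went from 32.2 to 39.5 CPM.

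Ncf1, the organizer that links the cytosolic subunits to the membrane pair, was lowest in wild type LSKs after 5-FU. Its libraries were at 127, 117 and 121 CPM in untreated Tespa1+/+ and at 123, 129 and 130 CPM in untreated Tespa1-/-. After 5-FU they were at 84.9, 89.8 and 81.9 CPM in Tespa1+/+ and at 136, 147 and 122.5 CPM in Tespa1-/-. The Tespa1+/+ libraries after 5-FU were below the other 9, and those 9 overlap. Gtf2ird2, which overlaps its 3′ end, had 165 to 586 counts per library beside 1991 to 3820 for Ncf1.

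Ncf4, which binds a membrane lipid of phagosomes and steadies the active complex, was at 33.9, 31.3 and 22.3 CPM in untreated Tespa1+/+ and at 30.7, 33.8 and 36.2 CPM in untreated Tespa1-/-. It was at 23.5, 20.9 and 27.2 CPM in 5-FU-treated Tespa1+/+ and at 43.9, 39.1 and 41.2 CPM in 5-FU-treated Tespa1-/-. The last group was above all other libraries. Untreated Tespa1+/+ had the widest spread of any group for this gene, 29.2 ± 6.11 CPM (SD, n = 3), with library 3 among the values of Tespa1+/+ after 5-FU.

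Rac2, the blood cell GTPase that switches the assembled oxidase on, was at 195, 181 and 194 CPM in untreated Tespa1+/+ and at 167, 166 and 167 CPM in untreated Tespa1-/-. After 5-FU it was at 152, 146 and 147 CPM in Tespa1+/+ and at 167, 188 and 190 CPM in Tespa1-/-. Group means ran from 149 to 190 CPM, the narrowest range of the 5 relative to its level. Tespa1+/+ after 5-FU was below every other library, as it was for Ncf1.

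**Figure D1:**
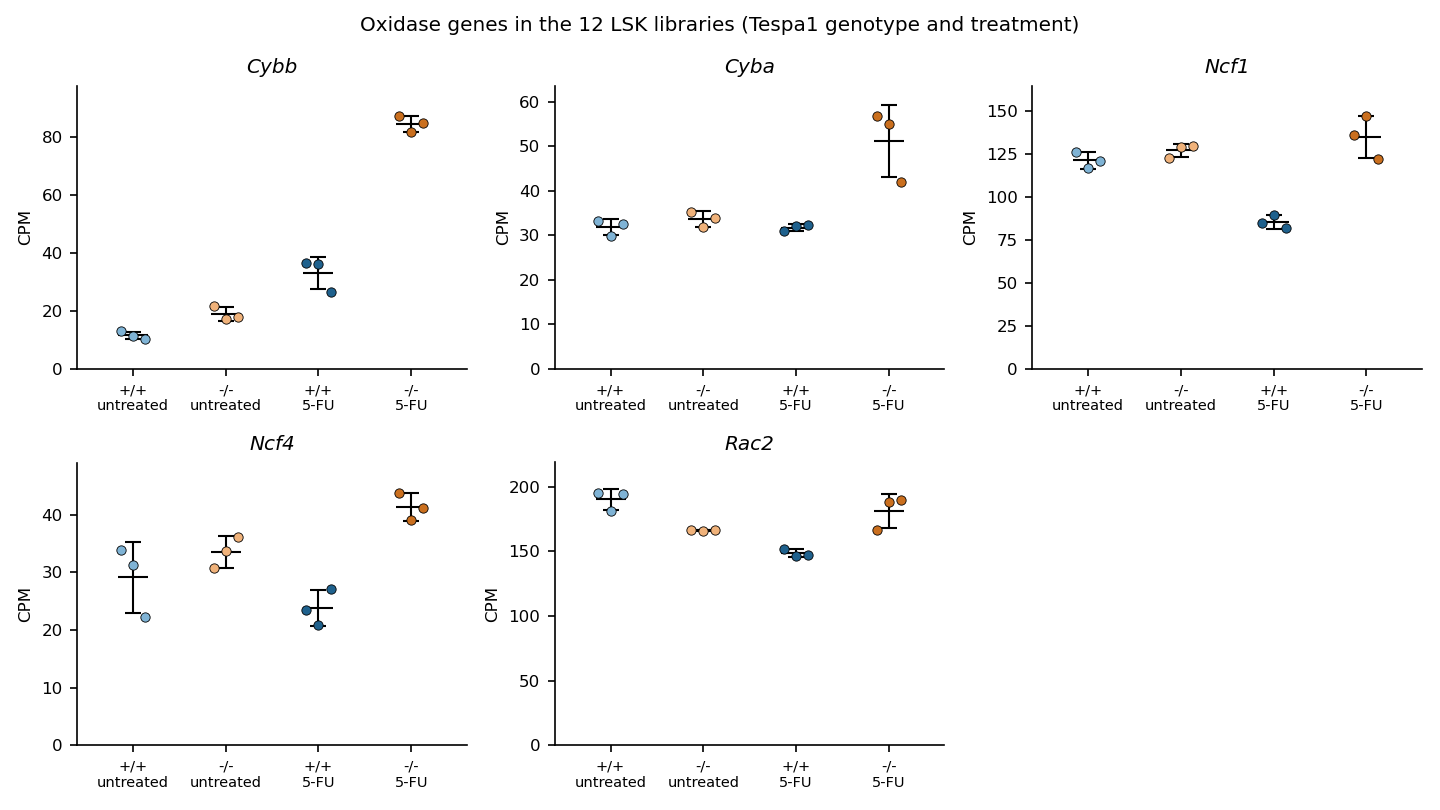
Expression of the 5 members in CPM (vertical axis, from 0) in the 4 groups (horizontal axis), with 1 point per library, the mean as a bar and the SD as whiskers (n = 3). Cybb steps up from group to group, Cyba is high in Tespa1-/- after 5-FU alone, and Ncf1 and Rac2 are lowest in Tespa1+/+ after 5-FU.

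The first question was whether loss of Tespa1 changed the oxidase genes in unstressed LSKs. Calls, here and below, are those of the quasi-likelihood test of edgeR at an adjusted p under 0.05 (Benjamini-Hochberg, over all genes) unless DESeq2 is named. Of the 5 members, 1 was called higher in Tespa1-/- and the other 4 were not called. Among the 17055 genes tested, 1.64% were called higher and 3.59% lower. The called gene was Cybb, with a log2 fold change of 0.73 (SE 0.15, adjusted p = 0.03 in edgeR), or 1.65-fold, and higher in 3 of 3 libraries. Leaving out 1 library, which leaves 5 in the fit, ended the call in 5 of 6 cases, and it held only without Tespa1+/+ library 1. In those fits the log2 fold change stayed between 0.62 and 0.80, with an adjusted p of up to 0.14 in edgeR. Rac2 lay below in 3 of 3 Tespa1-/- libraries, at -0.18 (SE 0.05), without passing (adjusted p = 0.0875 in edgeR). Cyba was at 0.09 (SE 0.09), Ncf1 at 0.08 (SE 0.06) and Ncf4 at 0.22 (SE 0.16), with overlapping libraries.

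After 5-FU, all 5 members were called higher in Tespa1-/- LSKs than in Tespa1+/+ LSKs, a count that is not independent evidence because the genes were chosen with earlier results known. Over the whole table of 17239 genes, 7.34% were called higher and 5.78% lower. Every Tespa1-/- library was above every Tespa1+/+ library for all 5 genes, which was so for 17.2% of all genes tested. The median log2 fold change of the 5 was 0.69, against -0.01 over all genes. Cybb had the largest difference, 1.36 (SE 0.13, adjusted p = 1.58e-04 in edgeR), or 2.56-fold. Ncf4 followed at 0.80 (SE 0.13, adjusted p = 0.00329 in edgeR), or 1.74-fold, and Cyba at 0.69 (SE 0.13, adjusted p = 0.0071 in edgeR), or 1.62-fold. Ncf1 was 1.58-fold higher, at 0.66 (SE 0.08, adjusted p = 7.58e-04 in edgeR). Rac2 had the smallest difference, 0.29 (SE 0.07, adjusted p = 0.0194 in edgeR), or 1.22-fold. Leaving out 1 library ended the Rac2 call in 4 of 6 cases, without Tespa1-/- library 2 or 3 or Tespa1+/+ library 2 or 3, with a log2 fold change of 0.26 to 0.35 and an adjusted p of up to 0.0716 over the 6. For single genes, 3 libraries against 3 allow an exact permutation p (two-sided) no smaller than 0.1, and each of the 5 reached it.

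**Figure D2:**
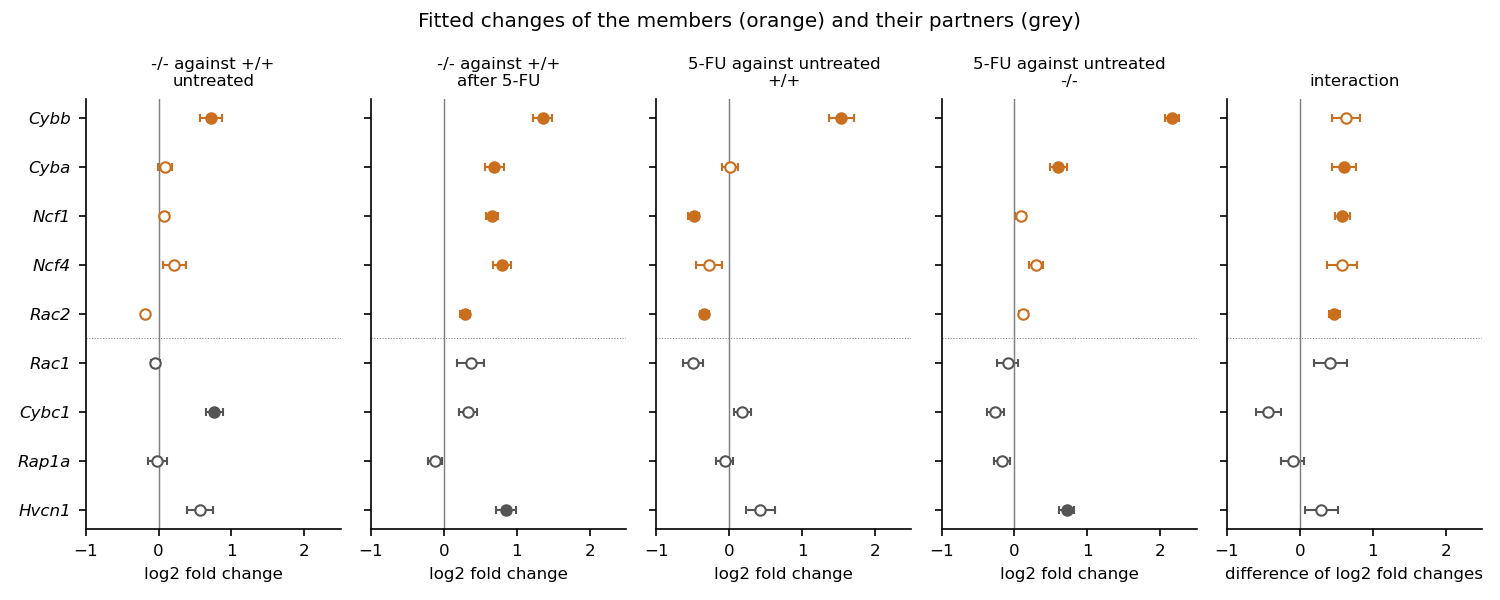
Log2 fold changes with their SE (horizontal axis) of the 5 members (orange, above the dotted line) and 4 partner genes (grey) in the 4 comparisons of groups and, at the right, the difference between the 5-FU responses of Tespa1-/- and Tespa1+/+ LSKs. Filled points passed an adjusted p below 0.05. After 5-FU all 5 members lie to the right of 0 with filled points, from 0.29 for Rac2 to 1.36 for Cybb.

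The response to 5-FU within each genotype was different from member to member. In Tespa1+/+ LSKs, Cybb rose by 1.54 on the log2 scale (SE 0.17, adjusted p = 7.17e-04 in edgeR), or 2.91-fold, while Ncf1 fell by 0.49 (SE 0.07, adjusted p = 0.00342 in edgeR) and Rac2 fell by 0.34 (SE 0.06, adjusted p = 0.00824 in edgeR). These were 1 of 5 members higher and 2 of 5 lower, where 3.77% and 4.18% of 17002 genes were called. The falls were 1.40-fold for Ncf1 and 1.27-fold for Rac2, so neither would be called with a fold threshold of 1.5 added. Cyba was at 0.01 (SE 0.11) and Ncf4 at -0.27 (SE 0.18), and neither passed. The sign for Cyba turned to -0.03 without untreated Tespa1+/+ library 2.

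In Tespa1-/- LSKs, Cybb rose by 2.16 (SE 0.10, adjusted p = 2.63e-06 in edgeR), or 4.48-fold, the largest change of any member in any comparison. Cyba rose by 0.60 (SE 0.12, adjusted p = 0.00884 in edgeR), or 1.52-fold. These 2 of 5 stand beside 10.7% of 17228 genes called higher and 8.64% called lower. Ncf4 was above in 3 of 3 libraries at 0.30 (SE 0.09) without passing (adjusted p = 0.0558 in edgeR). Ncf1 was at 0.08 (SE 0.07) and Rac2 at 0.12 (SE 0.06), with overlapping libraries.

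Whether the 5-FU response differed between genotypes was tested as the interaction over the 12 libraries. The difference was positive for all 5 members and passed for 3 of them, where 3.02% of 18696 genes were called with a positive and 1.99% with a negative difference. Ncf1 responded 0.58 higher on the log2 scale in Tespa1-/- than in Tespa1+/+ (SE 0.10, adjusted p = 0.00407 in edgeR), and Rac2 0.47 higher (SE 0.08, adjusted p = 0.00409 in edgeR). For both, the fall seen in Tespa1+/+ was not seen in Tespa1-/-. Cyba responded 0.61 higher (SE 0.16, adjusted p = 0.0447 in edgeR), a call that 11 of the 12 fits without 1 library did not make. It held only without Tespa1-/- library 3 after 5-FU, the library with reads on Gm20388, where the difference was 0.72 (adjusted p = 0.00801 in edgeR). With the Gm20388 reads added to Cyba it was 0.63 (adjusted p = 0.0219 in edgeR). Cybb, at 0.64 (SE 0.19, adjusted p = 0.0721 in edgeR), and Ncf4, at 0.58 (SE 0.21, adjusted p = 0.135 in edgeR), had differences of like size with larger errors. DESeq2 called the difference for Cybb (adjusted p = 0.0336).

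Levels can be set side by side between genes only per length, for which the deposited FPKM values were used. In untreated Tespa1+/+ LSKs the order was Rac2 at 61.4 ± 2.31 FPKM (SD, n = 3), Cyba at 24.1 ± 1.16, Ncf1 at 17.6 ± 0.572, Ncf4 at 9.14 ± 1.87 and Cybb at 1.79 ± 0.180 FPKM. Each gene stood apart from its neighbours in that order. The gene lengths behind the FPKM values are not given, and the order depends on them. Before scaling to length, Ncf1 was at 121 CPM and Cyba at 31.8 CPM in untreated Tespa1+/+. The catalytic subunit had the lowest FPKM of the 5, in this group and in the untreated Tespa1-/- group (2.98 ± 0.364 FPKM). It was still the lowest in Tespa1+/+ after 5-FU, at 5.38 ± 0.908 FPKM beside 7.81 ± 1.04 for Ncf4. In Tespa1-/- after 5-FU it reached 13.5 ± 0.450 FPKM, which overlapped Ncf4 (13.3 ± 0.787). Rac2, Cyba and Ncf1 kept the first 3 places in all 12 libraries.

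The level of Cybb relative to its membrane partner Cyba changed with it. Cybb FPKM was 7.97%, 7.79% and 6.58% of Cyba FPKM in untreated Tespa1+/+, 12.6%, 11.1% and 10.9% in untreated Tespa1-/-, 24.5%, 23.2% and 17.0% in 5-FU-treated Tespa1+/+ and 31.7%, 30.7% and 41.8% in 5-FU-treated Tespa1-/-. The 4 groups did not overlap. The value of 41.8% belongs to the library with Cyba reads lower and Gm20388 reads present. The value of 17.0% belongs to the other library with Gm20388 reads, 176 counts.

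**Figure D3:**
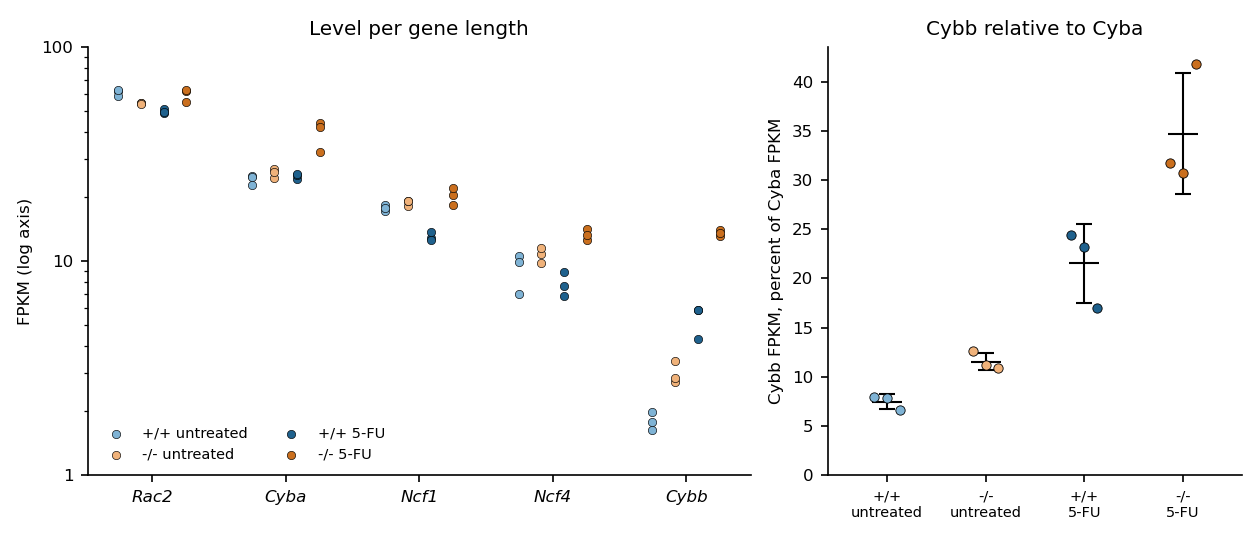
Left, FPKM of the 5 members (vertical log axis) with 1 point per library, colored by group. Right, Cybb FPKM as a percent of Cyba FPKM (vertical axis, from 0) per library, with the mean and SD (n = 3). Cybb climbs from the lowest place of the 5, 1.62 to 1.98 FPKM, to the level of Ncf4, and its share of the Cyba level climbs from 6.58% at the lowest to 41.8%.

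Of 4 partner genes, 1 was called higher in Tespa1-/- than in Tespa1+/+ in untreated LSKs (Cybc1) and 1 after 5-FU (Hvcn1), where 1.64% and 7.34% of all genes were called higher. Hvcn1, the proton channel that balances the charge the oxidase moves, was at 14.5, 16.9 and 19.0 CPM in Tespa1+/+ and 30.0, 31.4 and 29.9 CPM in Tespa1-/- after 5-FU. It was called higher there by 0.86 (SE 0.14, adjusted p = 0.00344 in edgeR), and it rose with 5-FU in Tespa1-/- by 0.71 (SE 0.11, adjusted p = 0.00211 in edgeR). Cybc1, a chaperone needed for the membrane pair, was at 37.0, 35.7 and 29.1 CPM in untreated Tespa1+/+ and 52.3, 56.8 and 62.6 CPM in untreated Tespa1-/-. It was called higher by 0.77 in that comparison (SE 0.11, adjusted p = 0.00671 in edgeR), and after 5-FU it was at 0.33 (SE 0.12, adjusted p = 0.109 in edgeR). Rac1, the widely expressed relative of Rac2, and Rap1a, a GTPase that copurifies with the flavocytochrome, were not called by edgeR in any comparison. Rac1 came nearest with 5-FU in Tespa1+/+ LSKs, at -0.50 (SE 0.14, adjusted p = 0.0569 in edgeR), where DESeq2 called it lower (adjusted p = 0.00125), and it varied within groups after 5-FU, from 108 to 155 CPM in Tespa1+/+ and from 118 to 192 CPM in Tespa1-/-.

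The other NADPH oxidases and their subunits had few reads. The 9 genes of this list together reached 1.90 to 3.74 CPM per library. Noxo1, an organizer subunit, was detected in all 12 libraries with 35 to 65 counts and group means of 1.63 to 2.32 CPM, while the other 8 genes stayed at or below 0.732 CPM in every library and Nox3 had 0 counts in all of them. At this depth 1 or 2 of the 9 could be tested in a comparison of groups, and none of those tested was called by edgeR or DESeq2 or had an unadjusted p under 0.05 in either. The phagocyte catalytic subunit Cybb, by comparison, had at least 229 counts in every library.

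Genes for the supply of NADPH were counted in the same comparisons. Of 9 genes of the pentose phosphate pathway and related steps, 5 were called higher in Tespa1-/- than in Tespa1+/+ after 5-FU (G6pdx, Pgd, Pgls, Rpia and Tkt), where 7.34% of all genes were, and 4 were not called (Idh1, Me1, Rpe and Taldo1, at -1.14 for Me1 to 0.38 for Rpe), with a list median of 0.38 against -0.01 over all genes. G6pdx, the entry enzyme of the pathway, was at 55.5 ± 7.58 CPM in Tespa1+/+ LSKs and 85.3 ± 1.33 CPM in Tespa1-/- LSKs (SD, n = 3), a log2 fold change of 0.62 (adjusted p = 0.0044 in edgeR). Pgd, which makes the pathway's other NADPH, was at 0.74 (adjusted p = 2.14e-04 in edgeR). In untreated LSKs edgeR called 1 of the 9, Rpe, which was lower, where it called 3.59% of all genes lower and 1.64% higher. DESeq2 also called Pgd higher (0.31, adjusted p = 0.0376). With 5-FU, 1 of 9 rose in Tespa1+/+ (Idh1), beside 3.77% of all genes, and 6 of 8 tested rose in Tespa1-/-, beside 10.7%. The difference between these responses was positive and passed in edgeR for 2 of the 9, Pgd and Rpia, beside 3.02% of all genes. DESeq2 called 5 of the 9 there, with G6pdx, Rpe and Tkt besides.

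Of 12 kinases known to act upstream of the oxidase, 11 could be tested. Prkcb, a protein kinase C that phosphorylates the Ncf1 product, was at 6.66 ± 0.737 CPM in untreated Tespa1+/+, 4.98 ± 2.54 in untreated Tespa1-/-, 22.8 ± 1.67 in 5-FU-treated Tespa1+/+ and 38.1 ± 3.13 in 5-FU-treated Tespa1-/- (SD, n = 3). It rose with 5-FU in both genotypes, by 1.79 in Tespa1+/+ (adjusted p = 2.79e-04 in edgeR) and 2.93 in Tespa1-/- (adjusted p = 2.23e-04 in edgeR). After 5-FU it was higher in Tespa1-/- by 0.74 (adjusted p = 0.00333 in edgeR). Prkcd was called higher and Pik3cg lower in the same comparison, at 0.29 and -0.34. With Prkcb, 2 of 11 tested were higher and 1 lower, beside 7.34% and 5.78% of all genes, so the single lower gene is near the background. The other 8 tested were not called by edgeR, while DESeq2 also called Akt1 higher (0.24, adjusted p = 0.0235). Of 11 regulators of Rac, 1 was called higher (Arhgdia, which holds Rac inactive in the cytosol, at 0.27) and 3 lower in Tespa1-/- after 5-FU, beside 7.34% and 5.78% of all genes, so the single higher gene is near the background. The lower ones were the exchange factors Dock2 at -0.28, Prex1 at -0.23 and Prex2 at -1.11. The exchange factors Vav1, Vav2, Vav3 and Tiam1 were not called by edgeR, at 0.09, 0.26, -0.38 and 0.21, while DESeq2 called Vav3 lower (adjusted p = 0.00984).

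Transcription factors with known roles at oxidase promoters went in both directions. In Tespa1-/- after 5-FU, 2 of 7 were called higher and 2 lower than in Tespa1+/+, beside 7.34% and 5.78% of all genes. Cebpe, a factor of late granulocyte development, was at 0.602 ± 0.638 CPM in Tespa1+/+ LSKs and 11.2 ± 1.29 CPM in Tespa1-/- LSKs (SD, n = 3), and Cebpa was higher by 0.67 (adjusted p = 0.0114 in edgeR). Irf1 was lower by 0.58, at -0.58 (adjusted p = 7.98e-04 in edgeR), and Elf1 was at -0.46 (adjusted p = 3.32e-04 in edgeR). Spi1, which encodes PU.1 and was named after its values were seen, was at 80.1 ± 4.36 CPM in Tespa1+/+ LSKs and 92.3 ± 1.76 CPM in Tespa1-/- LSKs after 5-FU and was not called in any comparison by edgeR or DESeq2. Irf8, a monocyte factor, fell with 5-FU in both genotypes, at -0.38 in Tespa1+/+ and -0.44 in Tespa1-/-. The part of any of these factors in the changes of the members was not tested.

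**Figure D4:**
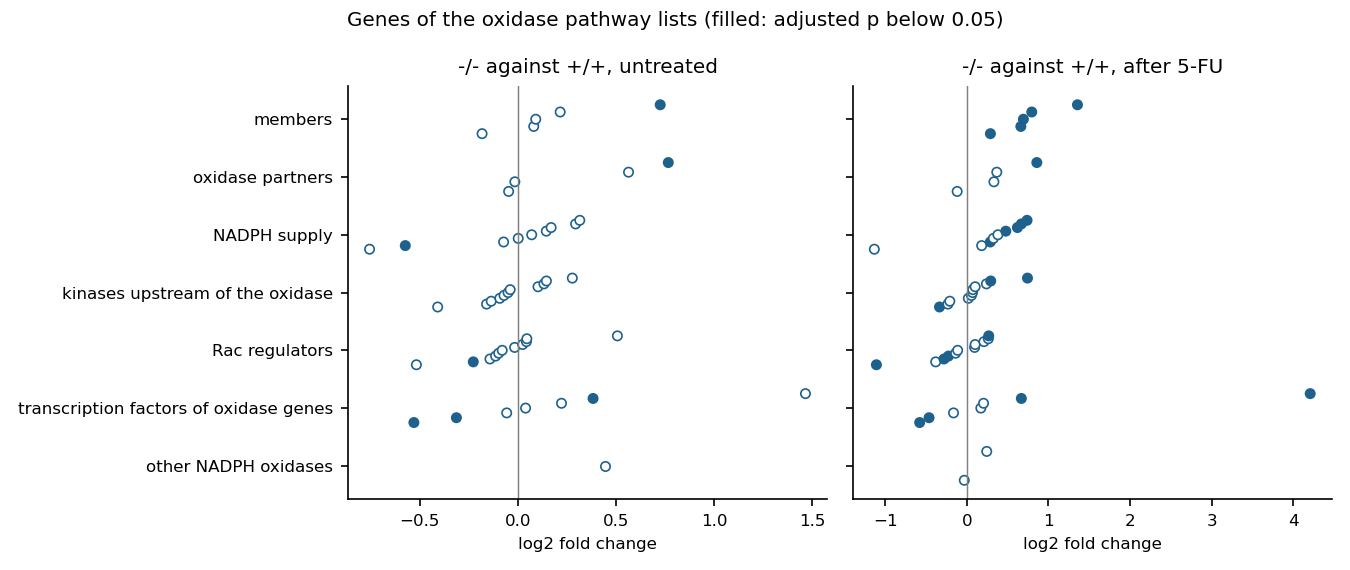
Log2 fold changes of Tespa1-/- against Tespa1+/+ LSKs (horizontal axis, with separate scales), untreated at the left and after 5-FU at the right, for every tested gene of the oxidase lists (rows), with filled points for an adjusted p below 0.05. After 5-FU the 5 members and 5 of the 9 NADPH supply genes are filled to the right of 0, the Rac regulators and transcription factors have filled points on both sides, and the point at 4.21 is Cebpe.

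Markers of mature cells were measured beside the oxidase genes, because bulk RNA does not show which cells a transcript came from. Per the study's methods, mature cells were depleted before sorting and the lineage stain covered CD3e, CD11b, Gr-1, B220 and Ter-119, which mark T, myeloid, B and erythroid cells. More cells of a type and more RNA per cell cannot be told apart here. The summed level of 13 neutrophil markers was 2.53 to 3.07 CPM per library in untreated Tespa1+/+, 7.03 to 8.33 in untreated Tespa1-/-, 9.12 to 13.3 in 5-FU-treated Tespa1+/+ and 1080 to 1089 in 5-FU-treated Tespa1-/-. Between the genotypes after 5-FU 11 of the 13 were called higher, where 7.34% of all genes were, and S100a9 and S100a8, which encode the abundant calcium-binding pair of the neutrophil cytosol, were at 314 ± 9.51 and 129 ± 8.91 CPM (SD, n = 3) in Tespa1-/-. The 8 erythroid markers, all 8 called higher there, summed to 8.65 to 12.99, 15.4 to 21.4, 19.7 to 31.1 and 404 to 430 CPM in the same order of groups. Their part in the higher oxidase genes of Tespa1-/- LSKs after 5-FU was not tested.

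The remaining lists were summed in the same way. The 7 monocyte markers summed to 312 to 358 CPM in untreated Tespa1+/+, 458 to 483 in untreated Tespa1-/-, 374 to 404 in 5-FU-treated Tespa1+/+ and 472 to 489 in 5-FU-treated Tespa1-/-. Of them 3 were called higher in untreated Tespa1-/-, beside 1.64% of all genes, and 1 higher and 2 lower in Tespa1-/- after 5-FU, beside 7.34% and 5.78%. The 6 B cell markers summed to 58.2 to 66.8 and 34.0 to 41.3 CPM in untreated Tespa1+/+ and Tespa1-/- and to 248 to 255 and 261 to 291 CPM after 5-FU. Dendritic cell markers (6 genes) were at 86.1 to 94.5, 87.0 to 105, 73.2 to 91.2 and 118 to 128 CPM in the 4 groups, and 3 of the 6 were called higher in Tespa1-/- than in Tespa1+/+ after 5-FU (list median 0.69). Megakaryocyte markers (5 genes) were at 32.5 to 38.1, 61.2 to 63.4, 108 to 123 and 163 to 169 CPM, and T cell markers (5 genes) at 1.03 to 8.71 CPM over all libraries. The 8 LSK markers summed to 1534 to 1595, 1269 to 1305, 1237 to 1291 and 739 to 808 CPM, with 6 of 8 called lower in Tespa1-/- than in Tespa1+/+ after 5-FU, where 5.78% of all genes were.

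Marker levels also moved in the other comparisons in which Cybb was called. With 5-FU in Tespa1+/+, where Cybb went to 26.5 to 36.6 CPM, the sum of the 13 neutrophil markers rose without overlap from at most 3.07 to at least 9.12 CPM. Of them 6 could be tested and 2 were called higher, Cxcr2 at 2.02 (adjusted p = 0.00765 in edgeR) and Lcn2 at 2.52 (adjusted p = 0.0469 in edgeR), and S100a9 was above in 3 of 3 libraries at 3.03 (adjusted p = 0.116 in edgeR). Cd177, Fcnb and Retnlg had 0 counts in every library of that group. In untreated Tespa1-/-, where Cybb was at 17.2 to 21.5 CPM, the same sum was at least 7.03 CPM against at most 3.07 CPM in untreated Tespa1+/+. There 5 of the 13 could be tested, with a median of 1.69 against 0.01 over all genes. Of these, 0 were called by edgeR, beside 1.64% of all genes called higher, and DESeq2 called 1 higher. An unadjusted p under 0.05 was reached in edgeR by 4 of the 5, and in either direction by 3157 of all 17055 genes tested. Mmp8 at 2.83, S100a9 at 2.80 and Lcn2 at 1.69 were each above in 3 of 3 libraries, while Cd177, Retnlg and Ly6g had 0 counts in Tespa1-/-. Between the untreated genotypes, 3 of 5 tested B cell and 3 of 8 LSK markers were called lower, beside 3.59% of all genes. Called higher were 3 of 7 monocyte and 1 of 4 tested megakaryocyte markers, beside 1.64%. No tested dendritic cell, T cell or erythroid marker was called by edgeR. Other lists moved with 5-FU in Tespa1+/+ as well. Among the 8 LSK markers 2 were called higher and 2 lower, beside 3.77% and 4.18% of all genes. Of 7 monocyte markers 2 were called higher, Ccr2 at 0.95 (adjusted p = 0.00243 in edgeR) and Fcgr1 at 2.67 (adjusted p = 0.048 in edgeR), as were 5 of 5 tested B cell markers, 3 of 4 tested megakaryocyte markers and 2 of 5 tested erythroid markers (Hbb-bt at 2.41, adjusted p = 0.00908, and Klf1 at 1.57, adjusted p = 0.0196 in edgeR), beside 3.77% of all genes. With 5-FU in Tespa1-/-, where Cybb changed most, 12 of 13 neutrophil markers (median 8.13) and 8 of 8 erythroid markers (median 4.62) were called higher, beside 10.7% of all genes. In the same comparison 5 of 6 B cell, 4 of 4 tested megakaryocyte and 3 of 6 dendritic cell markers were called higher, and 2 of 7 monocyte markers higher and 2 lower. Among the 8 LSK markers 3 were called higher and 2 lower there, where 8.64% of all genes were called lower. In the interaction of genotype and 5-FU, 5 of 13 neutrophil markers (median 5.202), 6 of 8 erythroid markers (median 4.25), 3 of 6 B cell markers (median 0.77) and 2 of 6 dendritic cell markers (median 0.31) had a positive call, beside 3.02% of all genes, and 3 of 8 LSK markers (median -0.41) a negative one, as had 1 of 7 monocyte markers (median -0.16), beside 1.99%. The part of any of these lists in the changes of the members was not tested.

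**Figure D5:**
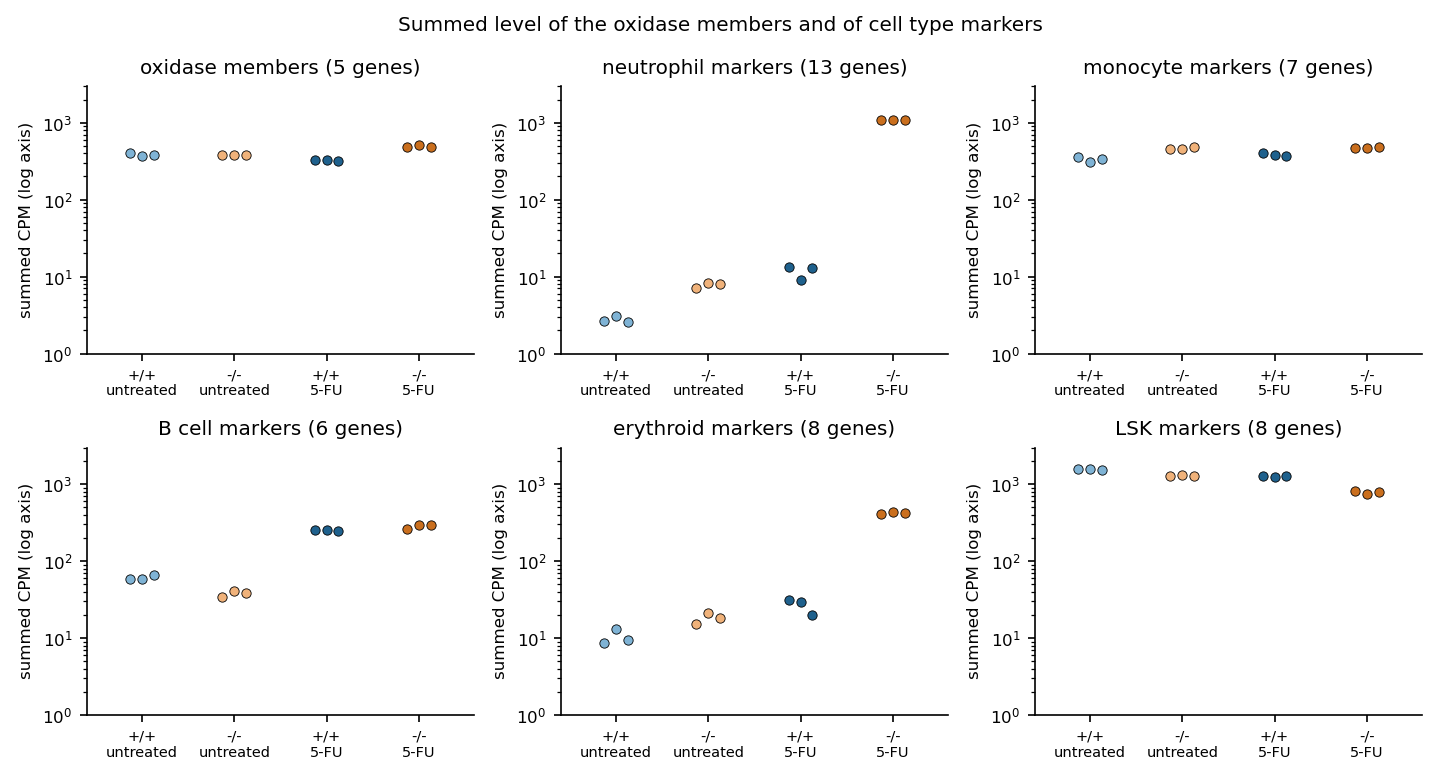
Summed CPM per library (vertical log axis, the same in each panel) of the 5 oxidase members and of 5 lists of cell type markers in the 4 groups (horizontal axis), with 1 point per library. The members' sum lies within 315 to 511 CPM in all libraries, while neutrophil markers go from 2.53 to 1089 CPM and LSK markers are lowest, at 739 to 808 CPM, in Tespa1-/- after 5-FU. Rac2 and Ncf1 have the highest CPM of the members in each group, so the sum shows little of Cybb. Its group mean goes from 11.5 CPM in untreated Tespa1+/+ to 84.7 CPM in Tespa1-/- after 5-FU.

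The genes most like each member over the 12 libraries were found by the root-mean-square (RMS) difference between profiles of log2(CPM + 1), each centred on its mean, among 14934 genes with a mean of at least 1 CPM. Cybb was most like Trem3, a receptor of myeloid cells, at an RMS difference of 0.19, then Myh10 at 0.22 and Atp1b2 at 0.23, where its own RMS spread was 1.04. The place of Trem3 depends on the pseudocount: with 0.1 in place of 1 it was no longer among the 3 nearest genes, while Myh10 and Atp1b2 still were. Trem3 went from 0.502 CPM in untreated Tespa1+/+ to 1.68 in untreated Tespa1-/-, 3.36 in 5-FU-treated Tespa1+/+ and 10.1 in 5-FU-treated Tespa1-/- (group means). Ncf1 was most like Clec12a, a myeloid lectin receptor, at 0.11, with 50.8, 58.6, 35.6 and 61.9 CPM in the same order. Cyba was most like Cdca8, E2f4 and Slc28a2, at 0.10 to 0.11, of which Cdca8 belongs to the mitotic spindle and E2f4 is a cell cycle factor. Rac2 was most like Ppp2r1a, a phosphatase scaffold, at 0.041, and Ncf4 most like Cep55, a protein of cell division, at 0.12. These are descriptions over 12 libraries in 4 groups, and the 5 members did not share a nearest gene.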

How the data were processed

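RNA-seq counts and FPKM values for 53465 genes in 12 LSK libraries were deposited by the authors as 1 table. Per the labels, poly-A RNA was made into stranded paired-end libraries, and the submitters' processing notes name CASAVA 1.8, HISAT2, StringTie, edgeR and GRCm38, without their roles. The deposited counts are reads per gene, not normalized, and the deposited FPKM values are scaled by the authors to gene length and library total. Groups came from the labels, and the dose, day and age from the study's methods. The quasi-likelihood test of edgeR 4.0.16 in R 4.3.3 (glmQLFit and glmQLFTest, with TMM factors and filterByExpr at a minimum count of 10) was run on the 6 libraries of each pair of groups, and over all 12 for the interaction. Benjamini-Hochberg adjustment covered every gene tested, and a gene was called at an adjusted p under 0.05. Single genes were also tested by exact permutation of log2(CPM + 1). FPKM was used only to compare genes. One result is not reported here. The script was tested on simulated data. The members, and the 15 lists of 115 genes, compiled from general knowledge, were chosen with earlier results of these data known. All 4 partners may be named, and in other lists the 3 genes of smallest adjusted p per comparison, and Spi1, Pgls, Tkt, Prex1, Cebpa, Irf8 in Tespa1-/-, Idh1, Me1, Rpe, Taldo1, the Vav genes, Tiam1, Akt1, Kit, Ly6a and markers at 0 were named after their values were seen. Alternatives were RLE size factors, library totals, DESeq2 1.42.0, no count filter, at least 10 counts in every library, 1 fit of all 12 libraries, a replicate block, each library left out, fold thresholds of 1.5 and, added after seeing the data, Gm20388 reads added to Cyba. Positions were compared with GENCODE M21. Tables were handled in Python 3.11 (NumPy 2.4.6 and pandas 2.3.3), exact tests in SciPy 1.17.1 and figures in matplotlib 3.10.9.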

Additional observations from a re-analysis of the deposited data

Results flagged for a closer look

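The response of 3 members to 5-FU differed between the genotypes by the interaction test of edgeR over the 12 libraries. Cyba responded 0.61 higher on the log2 scale in Tespa1-/- than in Tespa1+/+ LSKs (adjusted p = 0.0447 in edgeR), Ncf1 0.58 higher (adjusted p = 0.00407 in edgeR) and Rac2 0.47 higher (adjusted p = 0.00409 in edgeR). For Cyba the 2 responses were 0.60 and 0.01, for Ncf1 0.08 and -0.49, and for Rac2 0.12 and -0.34, in Tespa1-/- and Tespa1+/+ respectively. The calls for Ncf1 and Rac2 held in all 12 fits that left out 1 library, with adjusted p-values of up to 0.0171 and 0.0173 in edgeR, and the call for Cyba held in 1 of the 12. By the same test, 5 of 13 neutrophil, 6 of 8 erythroid, 3 of 6 B cell and 2 of 6 dendritic cell markers had a positive difference (medians 5.202, 4.25, 0.77 and 0.31) and 3 of 8 LSK and 1 of 7 monocyte markers a negative one (medians -0.41 and -0.16), and their part in the differences of the members was not tested.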

How the results depend on the processing

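Over 25 member changes (5 genes in 5 comparisons) and the refits with other scalings, filters, libraries, DESeq2, the block or Gm20388 reads added, which leaves out the fold thresholds given below, 343 of 375 recomputed log2 fold changes kept their direction and their side of the threshold, 25 lost the call, 5 gained it and 2 changed sign. The members called higher after 5-FU in Tespa1-/- stayed at 5 under the other scalings, filters, DESeq2 and the joint fit, and went to 4 with a fold threshold of 1.5, with the block and in 4 of the 6 fits without 1 library, each time without Rac2. The replicate numbers did not pair the libraries: correlations of same-numbered libraries ran from -0.0762 to 0.0422 over 18 pairs, and 4 of 18 correlated best with their own number. With the replicate block, the members called higher in untreated Tespa1-/- went from 1 to 0 (Cybb, 0.73, adjusted p = 0.0551 in edgeR), and to between 0 and 1 when 1 library was left out. The block also ended the Rac2 call after 5-FU (adjusted p = 0.0519 in edgeR) and the Cyba interaction (adjusted p = 0.0717 in edgeR), gave the Cybb interaction an adjusted p of 0.0494 in edgeR, and changed no other call of a member. The Cyba interaction was also lost with library totals (0.56, adjusted p = 0.0631 in edgeR) and with no filter (0.61, adjusted p = 0.0553 in edgeR), and over the 12 fits without 1 library it ran from 0.51 to 0.72 (adjusted p of up to 0.119 in edgeR). Calls were gained for the Ncf4 interaction without untreated Tespa1+/+ library 3 (0.74, adjusted p = 0.0267 in edgeR), for Ncf4 with 5-FU in Tespa1-/- with library totals (adjusted p = 0.0469 in edgeR) and for Rac2 with 5-FU in Tespa1-/- without 5-FU library 1 (0.18, adjusted p = 0.0399 in edgeR). The change of Cyba with 5-FU in Tespa1+/+, 0.01, ran from -0.03 to 0.029 when 1 library was left out, with values below 0 without 5-FU library 3 (-0.0026) and without untreated library 2 (-0.031). The cause was not tested. With a fold threshold of 1.5, on adjusted or unadjusted p, the members called lower with 5-FU in Tespa1+/+ went from 2 to 0, and with the threshold on adjusted p the members with a positive interaction from 3 to 1, by construction. The 1 left was Cyba at 0.6059, whose call was lost in 11 of the 12 fits without 1 library. Ncf1, at 0.5845, fell just short of the fold threshold. Over all genes, calls went in untreated LSKs from 892 to 454 with the block, 428 with the fold threshold and as few as 338 without 1 library. After 5-FU between genotypes they went from 2261 to 1204 with the fold threshold. For 5-FU in Tespa1+/+ they went from 1352 to 2113 in the joint fit, 753 with the fold threshold and as few as 783 without 1 library, and in Tespa1-/- from 3336 to 1735 with the fold threshold. For the interaction they went from 936 to 1505 in DESeq2, 601 with the fold threshold, 1941 with an unadjusted p and the fold threshold, and as few as 573 without 1 library. No gene lengths are in the table, so FPKM was not recomputed with TMM factors, an alternative that was not run. With a pseudocount of 0.1, the 3 genes most like each member shared 3 for Cyba, 2 for Cybb, Ncf1 and Rac2, and 1 for Ncf4.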
